A study of Mus musculus with 6 samples.

Results

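Ion channel genes were examined in the lens transcriptome of newborn mice with a conditional deletion of Celf1, which encodes an RNA-binding protein. The members were taken by gene symbol, as every gene whose symbol begins with the letters of the potassium (Kcn), voltage-gated calcium (Cacna, Cacnb, Cacng), voltage-gated sodium (Scn), CLC chloride (Clcn), transient receptor potential (Trpc, Trpm, Trpv), anoctamin (Ano), Piezo or HCN families. This gave 111 of the 13931 genes in the table of expression values. Of these, 106 encode channel subunits. The other 5 carry the letters only: the antisense transcripts Kcnq1ot1, Kcnd3os and Kcnmb4os2, and the genes Trpc4ap and Kcnrg. All 111 were found in the GENCODE M21 annotation of GRCm38.

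RNA-sequencing was performed on whole lens tissue micro-dissected at postnatal day 0 (P0), with 3 Control and 3 Celf1cKO libraries, each from 2 pooled lenses. The Celf1cKO mice combined a germline knockout allele (Celf1lacZKI) with a conditional allele in which exon 5 lies between loxP sites, and with Pax6GFPCre, a line that expresses Cre from the lens placode on and also in the pancreatic lineage. All mice were of a mixed C57BL/6 and FVB background. By the labels the Control lenses were Celf1lacZKI/+, so that they would already carry 1 knockout allele, whereas the methods of the study name floxed mice without Cre as the usual controls. Which applies here is not known, and every difference below is relative to these lenses. The depth was even, with 40694454 to 44387151 counted reads in a library. Values are log2 CPM, in which the reads of a gene are scaled to a common normalised library size.

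Celf1 itself was reduced in the Celf1cKO lenses. It was measured at 9.95, 9.94 and 9.34 log2 CPM in Control libraries 1, 2 and 3, and at 8.93, 7.66 and 7.83 in Celf1cKO libraries 1, 2 and 3. The groups did not overlap, and Celf1cKO library 1 kept the most transcript. The log2 fold-change was -1.60 (SE 0.335, limma adjusted p = 0.0269). The adjusted p held without Celf1cKO library 1 and not without any of the other 5 libraries, where it was 0.0560 to 0.108 with a log2 fold-change of -1.80 to -1.36. The exact two-sided permutation test over 3 against 3 libraries gave p = 0.1, the smallest p that this design allows. These reads were counted over the whole gene and do not report on exon 5 alone.

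Ion channels let ions cross membranes down their gradients. Potassium channels set the resting potential, sodium and calcium channels open on depolarisation, chloride channels and exchangers act in volume control and in the acidification of vesicles, and TRP and Piezo channels respond to ligands, lipids, temperature or stretch. The mature lens has no blood supply and is thought to move ions and water through its fiber mass by a standing current, in which epithelial potassium conductances and fiber leak conductances take part. It is not a classically excitable tissue, although transcripts of neuronal and muscle channels have been detected in it.

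Celf1 is known to bind GU-rich elements in 3′ untranslated regions (UTRs), and such an element, 11 bases long and made of the unit TGTT repeated without a break (3 units less the last base), was therefore searched on the sense strand in the longest annotated 3′ UTR of each gene. It was present in 5 of the 108 members with a 3′ UTR (4.63%), compared with 561 of 13101 genes in all (4.28%). The 5 genes were Kcnj2, Kcnk3, Cacna1c, Kcnma1 and Piezo2, and none of the 7 members called differentially expressed below was among them. A 30-base stretch around one element of each of 4 genes is shown here, 5′ to 3′ along the transcript, to let the contexts be compared. Capitals mark the element, and the sequences were read from GRCm38 by the GENCODE M21 annotation.
Kcnj2, 3′ UTR, chr11:111075512-111075541, plus strand: tttttcgttTGTTTGTTTGTtcgttttttt
Kcnk3, 3′ UTR, chr5:30623800-30623829, plus strand: gttttttttTGTTTGTTTGTttttttgttt
Cacna1c, 3′ UTR, chr6:118589186-118589215, minus strand: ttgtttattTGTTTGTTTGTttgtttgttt
Kcnma1, 3′ UTR, chr14:23296828-23296857, minus strand: gttgttattTGTTTGTTTGTttttaagtgt
The stretches share the element and T-rich flanks. The log2 fold-changes of these genes were -2.11 for Kcnj2, -1.48 for Kcnk3, -0.34 for Cacna1c and 0.25 for Kcnma1, and none passed the test. By the rule given below, 63 of all 561 genes with the element were called higher and 11 lower. Of the 12540 genes without it, 588 were called higher and 329 lower. Genes with the element had longer 3′ UTRs (median 3003 against 1141 bases), and the difference in calls was not tested. A match is a description of the letters and not evidence of binding.

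Calls among the ion channel genes were set beside those over all genes. A gene was called when its limma adjusted p, taken over all 13931 genes, was under 0.05, its log2 fold-change was beyond 0.58, and its mean over the 6 libraries was above 1 log2 CPM. By this rule 2 of the 111 members were elevated in Celf1cKO lenses, Scn9a among them (1.80%), where 4.69% of all genes were. Another 5 were reduced, Scn11a, Kcnh2, Kcnj6, Kcnj11 and Piezo1 (4.50%), where 2.56% of all genes were. Among the 54 members above the level of 1 these were 3.70% and 9.26%, against 6.21% and 3.38% of all genes above it. At an unadjusted p under 0.05, which counts of families below also use, 16.3% of all genes were higher and 13.7% lower. The adjusted p alone was met by 3 elevated members, which adds Trpv2 (7.85% of all genes), and by 7 reduced members, which adds Kcnj12 and Kcnk5 (4.03% of all genes).

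The members leaned downward as a group in their point estimates. The log2 fold-change was negative in 77 of the 111 members and positive in 34, with a median of -0.40. Over all genes it was negative in 7464 of 13931, with a median of -0.04. Above 1 log2 CPM the medians were -0.34 for members and 0.01 for all genes. At or below that level they were -0.48 and -0.28, so scarce genes in general leaned downward. All 3 Celf1cKO libraries lay below all 3 Control libraries in 31 members (27.9%), where this held for 17% of all genes, and above them in 7 members (6.31%), where it held for 19.5% of all genes. Because these are whole lenses, fewer cells of a type and less RNA per cell cannot be told apart. Under scaling by total reads in place of the authors' normalisation, the median log2 fold-change of expressed genes moved from 0.01 to 0.23 and that of the members from -0.40 to -0.19. The members' median was -0.18 on a log2(CPM + 1) scale and -0.19 under quantile normalization.

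**Figure D1:**
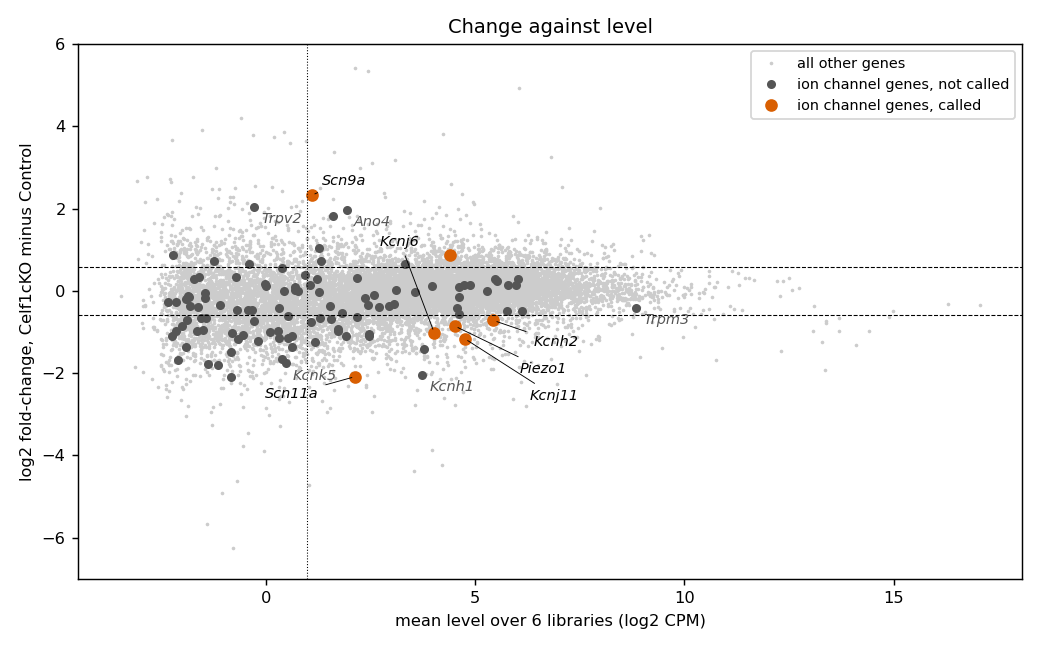
Log2 fold-change (Celf1cKO minus Control) against the mean level over 6 libraries (log2 CPM), with ion channel genes in dark grey, called ones in orange and all other genes in light grey. Dashed lines mark the fold threshold of 0.58 either way and the dotted line the level of 1; 5 of the 7 called genes lie below 0 and 2 above.

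Most channel genes were scarce. Only 54 of the 111 (48.6%) had a mean above 1 log2 CPM, against 75.6% of all genes, and 16 had a library with 3 reads or fewer. Levels of different genes were compared per length, as CPM per kilobase (kb) of merged exon. On this scale 32 members exceeded 1 CPM per kb and 26 were under 0.1. The highest was Kcnj12, a strong inward rectifier, at 23.6 ± 2.61 CPM per kb in Control (SD, n = 3) and 16.8 ± 1.10 in Celf1cKO (SD, n = 3). Trpm3, a cation channel of which variants are linked to inherited cataract in people, was next at 21.9 ± 2.17 and 16.4 ± 2.11. The Kcnj12 and Trpm3 values overlapped within each group, so the order of these 2 genes did not exceed their spread.

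Trpm3 made up 28.4% to 34.3% of all reads of the members. The summed level of the 111 genes was 1464, 1599 and 1705 CPM in the Control libraries and 1357, 1293 and 1315 CPM in the Celf1cKO libraries, so that all Celf1cKO libraries were lower. Without Trpm3 the sum was 1055 ± 69.4 CPM in Control and 921 ± 22.4 CPM in Celf1cKO (SD, n = 3 each).

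**Figure D2:**
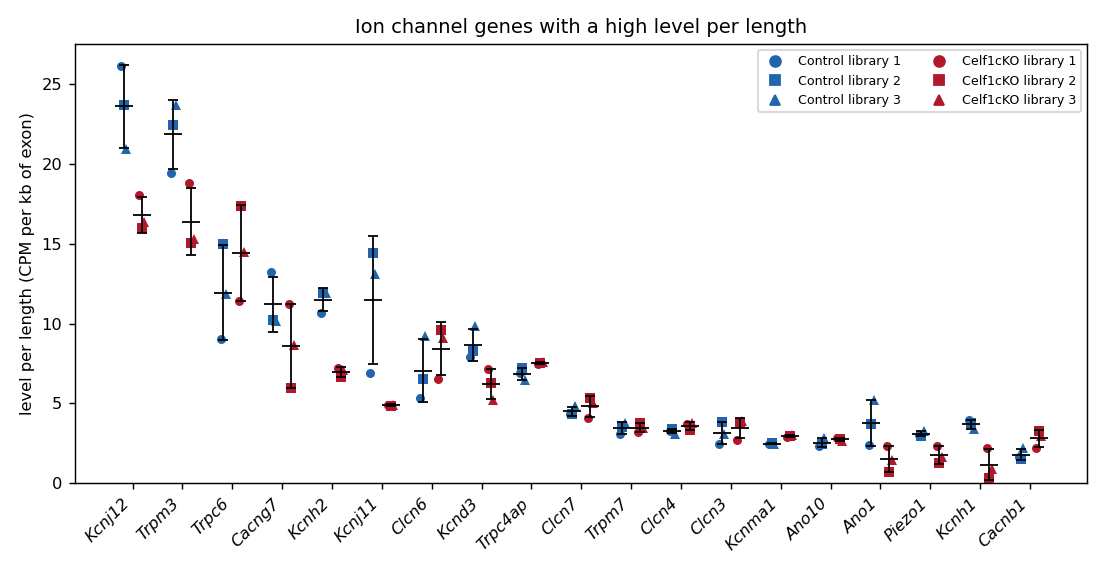
Level per length (CPM per kb of merged exon) of 19 ion channel genes with high means. Points are libraries, in blue for Control and red for Celf1cKO with a shape for each library number, and bars give the mean ± SD of 3 libraries; Kcnj12, Kcnh2 and Trpm3 lie lower in all Celf1cKO libraries, while Trpc6 and the CLC genes overlap.

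Among the 18 pore subunits of voltage-gated potassium channels, 6 were above 1 log2 CPM, and Kcnh2 was reduced. Kcnh2 (ENSMUSG00000038319, chr5:24319589-24351604) encodes the ERG channel that repolarises the heart. It was measured at 5.69, 5.85 and 5.86 log2 CPM in Control and at 5.13, 5.01 and 5.10 in Celf1cKO. The values were tight within each group and far apart between them. The reduction was 1.65-fold (log2 fold-change -0.72, SE 0.0908, limma adjusted p = 0.00951), and rested on 1499 to 2278 reads in a library. It was not called without Control library 2 (adjusted p = 0.0512) or Celf1cKO library 3 (0.0659), and was called without each of the other 4. Under scaling by total reads its log2 fold-change was -0.49, inside the fold threshold, which ends the call.

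Kcnh1, a relative of Kcnh2 that encodes the EAG channel, had a larger fold-change but did not pass the test. It was at 4.85, 4.78 and 4.63 log2 CPM in Control and at 4.03, 1.36 and 2.75 in Celf1cKO. The Control libraries were close together and the Celf1cKO libraries were spread widely, with library 2 lowest. The log2 fold-change was -2.04 (limma adjusted p = 0.0628), and a fit with the replicate number as block gave an adjusted p of 0.0375, which would call it. It was also called by voom on whole reads, under quantile normalization and without Celf1cKO library 1. Kcnd3, a pore subunit of fast A-type currents, was at 6.24, 6.32 and 6.56 in Control and 6.10, 5.92 and 5.64 log2 CPM in Celf1cKO (log2 fold-change -0.48, limma adjusted p = 0.0651). Kcnq1, a subunit of the slow delayed rectifier, did not pass the test (-0.98, adjusted p = 0.305).

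The 10 accessory subunits of potassium channels held no gene called by limma, with 3 of the 10 reduced at an unadjusted p under 0.05 (13.7% of all genes), 3 above 1 log2 CPM and a median log2 fold-change of -0.76. Kcnab2, an oxidoreductase-like beta subunit, differed by -0.38 (limma adjusted p = 0.217). Its paralog Kcnab1 was at 2.57, 2.65 and 2.22 log2 CPM in Control and 1.90, 0.76 and 1.48 in Celf1cKO (log2 fold-change -1.10, adjusted p = 0.0616). Kcne1, the small partner of the Kcnq1 channel, differed by -0.98 (adjusted p = 0.0992). Both Kcnab1 and Kcne1 lay below Control in every Celf1cKO library without passing the test, and both were called when Celf1cKO library 1 was left out.

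The 9 inward rectifiers held 2 of the 5 reduced genes (22.2% of the 9, against 2.56% of all genes). Kcnj11 (ENSMUSG00000096146, chr7:46093953-46100764) encodes the pore of the ATP-sensitive potassium channel, which links metabolism to membrane potential. It was at 4.67, 5.73 and 5.59 log2 CPM in Control and at 4.18, 4.15 and 4.18 in Celf1cKO. The Celf1cKO libraries were nearly equal, and Control library 1 lay nearest to them. The reduction was 2.24-fold (log2 fold-change -1.16, SE 0.259, limma adjusted p = 0.0324). It was called without Control library 1 or Celf1cKO library 1 and not without any of the other 4 libraries (adjusted p = 0.0778 to 0.114), nor without the variance trend (0.0741).

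Abcc8, the gene of the sulfonylurea receptor that assembles with Kcnj11, lies 3.76 kb from it on chromosome 7. It was at 6.13, 6.41 and 6.68 log2 CPM in Control and 5.98, 6.09 and 5.88 in Celf1cKO. Every Celf1cKO library was below Control, but the log2 fold-change of -0.42 did not pass the test (limma adjusted p = 0.0993). The difference between the changes of the 2 genes was not tested.

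Kcnj6 (ENSMUSG00000043301, chr16:94748636-94997701), a G protein-gated inward rectifier of neurons, was at 4.12, 4.86 and 4.62 log2 CPM in Control and at 3.58, 3.42 and 3.56 in Celf1cKO. Again the Celf1cKO libraries were close together and below all Control libraries. The reduction was 2.02-fold (log2 fold-change -1.01, SE 0.193, limma adjusted p = 0.0203). It was called without Control library 1 or Celf1cKO library 1 and not without the other 4 in turn (adjusted p = 0.0593 to 0.0899), nor without the variance trend (0.0549). An antisense transcript, Gm41505, overlaps 4.98% of its exon bases, and the strand setting of the counting was not given in the sources used here. Kcnj12, the most abundant member per length, was at 6.17, 6.03 and 5.85 log2 CPM in Control and at 5.63, 5.46 and 5.49 in Celf1cKO. It met the adjusted p (0.0326, limma) but its log2 fold-change of -0.49 was inside the fold threshold, and under scaling by total reads its adjusted p was 0.108. Without Control libraries 1 or 2 or Celf1cKO libraries 2 or 3 it was 0.0927 to 0.136.

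The other inward rectifiers were scarce. Kcnj2, with a log2 fold-change of -2.11 (limma adjusted p = 0.0805), rested on 25, 67 and 47 reads in Control and 22, 3 and 14 in Celf1cKO. Kcnj13, a channel of pigment epithelium that has also been described in lens, had 19, 3 and 50 reads in Control and 7, 1 and 39 in Celf1cKO. Library 2 was lowest and library 3 highest in both groups, and each Celf1cKO library was below the Control library of the same number (log2 fold-change -0.98, limma adjusted p = 0.59, and 0.123 with the replicate block). Kcnj4 was not among the genes in the table.

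Tandem-pore potassium channels, which carry background leak, were 4 in number and all under 1 log2 CPM on average. Kcnk5, an alkaline-activated channel, was at 1.02, 1.66 and 1.40 log2 CPM in Control and 0.53, -1.12 and -0.61 in Celf1cKO. All Celf1cKO libraries were below Control, with library 2 lowest. It met the adjusted p without the block (log2 fold-change -1.76, limma adjusted p = 0.0459) and missed it with the block (0.0526), and it met it without Celf1cKO library 1 but not without the other 5 in turn (0.0896 to 0.154). Kcnk1, described in lens before, differed by -1.10 (adjusted p = 0.199) and Kcnk2, a stretch-sensitive channel, by -0.66 (adjusted p = 0.432). The calcium- and sodium-activated channels were led by Kcnma1, the large-conductance BK channel, at 5.39, 5.41 and 5.40 log2 CPM in Control and 5.61, 5.64 and 5.69 in Celf1cKO. This was a small and regular difference with no overlap (log2 fold-change 0.25, 95% interval 0.06 to 0.43) that did not pass the test (limma adjusted p = 0.0836), and under scaling by total reads it was 0.47 with an adjusted p of 0.0103.

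**Figure D3:**
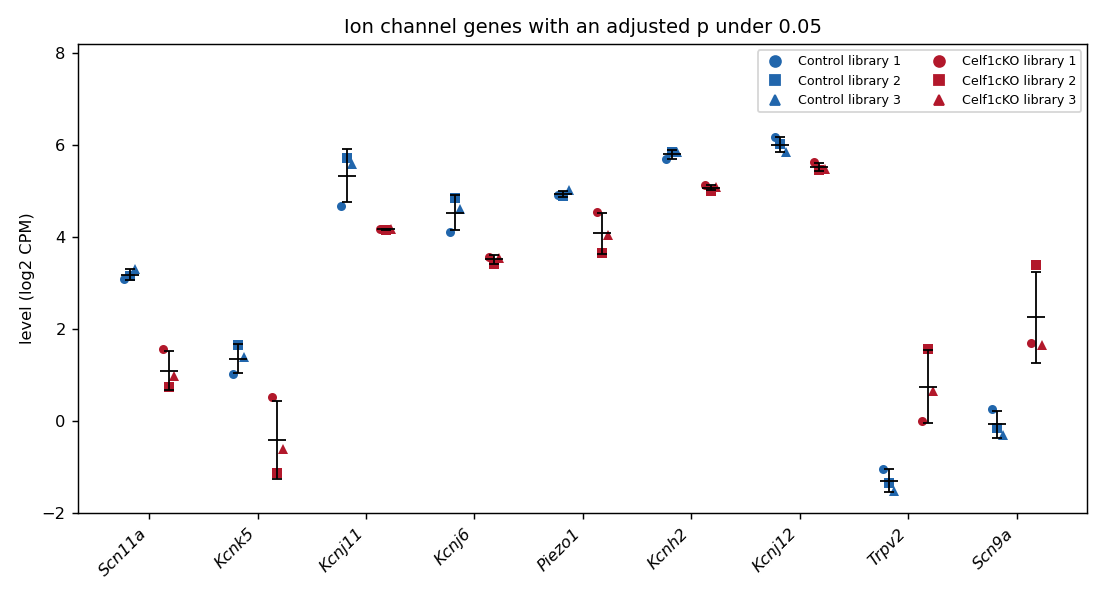
Level (log2 CPM) of 9 ion channel genes with a limma adjusted p under 0.05, by library, with the mean ± SD of 3 libraries. Blue is Control and red is Celf1cKO; the groups do not overlap in any of the 9, and Kcnj11 and Kcnh2 have the most even Celf1cKO libraries, while Scn9a, Trpv2 and Kcnk5 stand apart most in Celf1cKO library 2.

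The called genes with the largest fold-change in each direction were voltage-gated sodium channels. Scn11a (ENSMUSG00000034115, chr9:119753759-119825456) encodes a persistent-current channel best known from pain-sensing neurons. It was at 3.08, 3.16 and 3.31 log2 CPM in Control and at 1.58, 0.74 and 0.98 in Celf1cKO. In reads, this was 323, 330 and 389 against 126, 79 and 95, with a wide gap between the groups. The reduction was 4.24-fold (log2 fold-change -2.08, SE 0.246, 95% interval -2.66 to -1.51, limma adjusted p = 0.0094). The call was lost without Control library 2 (adjusted p = 0.0512) or Celf1cKO library 3 (0.0607) and not without the other 4, where the log2 fold-change was -2.32 to -1.91.

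Scn9a (ENSMUSG00000075316, chr2:66480080-66634962), which encodes another channel of pain-sensing neurons, was at 0.26, -0.14 and -0.31 log2 CPM in Control and at 1.71, 3.40 and 1.67 in Celf1cKO. Control libraries held 44, 32 and 30 reads and Celf1cKO libraries 138, 511 and 154, so that the rise was present in each and highest in library 2. The increase was 4.99-fold (log2 fold-change 2.32, SE 0.482, 95% interval 1.19 to 3.45, limma adjusted p = 0.0265). It was called without Celf1cKO library 1 or 2, with a log2 fold-change of 1.75 without library 2, and not without Celf1cKO library 3 or any Control library (adjusted p = 0.0597 to 0.0944). With voom on the whole reads the adjusted p was 0.0621 and without the variance trend 0.0601, and either ends the call. Its neighbours on chromosome 2 gave no call: Scn1a, 39.2 kb away, differed by 0.73 and Scn2a, 713 kb away, by -1.15 (limma adjusted p = 0.384 and 0.082).

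The promoters of the sodium channel genes that moved apart are given as the sequence context of the called genes with the largest fold-changes. Each runs from 250 bases before to 50 after the RefSeq start, on GRCm38.p6, 5′ to 3′ along the gene, with each CG dinucleotide in capitals.
Scn11a, chr9:119825407-119825706, minus strand: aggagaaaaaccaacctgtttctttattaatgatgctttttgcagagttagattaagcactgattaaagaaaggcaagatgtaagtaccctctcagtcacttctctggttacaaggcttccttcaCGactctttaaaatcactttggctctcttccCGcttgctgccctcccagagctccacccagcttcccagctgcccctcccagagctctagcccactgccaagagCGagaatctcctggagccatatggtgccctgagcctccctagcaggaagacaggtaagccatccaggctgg
Scn9a, chr2:66634913-66635212, minus strand: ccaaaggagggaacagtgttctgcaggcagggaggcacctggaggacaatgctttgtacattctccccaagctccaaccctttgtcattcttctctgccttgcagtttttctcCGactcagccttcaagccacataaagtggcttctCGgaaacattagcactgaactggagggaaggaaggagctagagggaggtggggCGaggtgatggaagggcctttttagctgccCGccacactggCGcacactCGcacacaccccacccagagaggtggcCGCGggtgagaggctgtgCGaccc
The Scn11a window has 3 CG dinucleotides and a GC content of 50.3%, and the Scn9a window has 9 and 57.3%. The median was 12 over 116 promoters of the 82 members matched in RefSeq, and 20 over the promoters of all genes tested. Neither window holds GGGCGG on either strand, which was present in 44.8% of the members' promoters and in 60.9% of those of genes tested, nor TATAAA on either strand, present in 6.90% and 7.31%. The letters say nothing of which factors act there.

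No voltage-gated calcium channel gene was called by limma, with or without voom, among 7 pore and 12 accessory subunits. At an unadjusted p under 0.05 there were 2 reduced pore genes, and 1 elevated and 1 reduced accessory gene, where 16.3% of all genes were higher and 13.7% lower. Cacna1d, an L-type pore subunit that opens at low voltages, was at 4.76, 4.83 and 5.11 log2 CPM in Control and 4.15, 4.25 and 4.62 in Celf1cKO. The log2 fold-change of -0.57 lay just inside the fold threshold (limma adjusted p = 0.0612, and 0.0218 with the replicate block). The L-type gene Cacna1c differed by -0.34 (95% interval -0.88 to 0.19) and the P/Q-type gene Cacna1a by -1.05 (adjusted p = 0.15).

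Among the accessory subunits, Cacng7, a gamma subunit known for its part in glutamate receptor trafficking, was the most abundant per length at 9.91 CPM per kb and differed by -0.41 (limma adjusted p = 0.271). Cacnb1, the beta subunit of the skeletal muscle channel, was at 2.93, 2.79 and 3.31 log2 CPM in Control and 3.35, 3.90 and 3.74 in Celf1cKO. Each Celf1cKO library exceeded Control, without a call (log2 fold-change 0.66, adjusted p = 0.0792). Cacnb1 was called under scaling by total reads and without Celf1cKO library 1. Cacng4, a further gamma subunit, was at 2.04, 0.84 and 2.52 in Control and 1.15, -0.38 and 0.89 in Celf1cKO. Its library 2 was lowest in both groups, and its log2 fold-change of -1.25 was called only with the replicate block (adjusted p 0.172 without and 0.0281 with it, limma).

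The CLC genes held no call by limma and 0 at an unadjusted p under 0.05, and 6 of the 7 were abundant enough for narrow intervals around 0. Clcn2, Clcn3, Clcn4, Clcn5, Clcn6 and Clcn7 had means between 3.11 and 5.80 log2 CPM and log2 fold-changes between -0.03 and 0.28. Their 95% intervals together spanned -0.49 to 0.80, so that a fold of 2 lay outside each interval. Clcn7, the lysosomal chloride-proton exchanger, was at 4.53, 4.52 and 4.68 log2 CPM in Control and 4.44, 4.82 and 4.74 in Celf1cKO, with overlapping groups (log2 fold-change 0.09, limma adjusted p = 0.685). Clcn6, a late endosomal exchanger, was the highest per length at 7.73 CPM per kb. Clcn1, the skeletal muscle channel, was scarce and differed by 0.71 (adjusted p = 0.301).

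Ostm1, whose protein is the obligate partner of the Clcn7 exchanger, was elevated although Clcn7 was not called. It was at 4.02, 3.91 and 3.74 log2 CPM in Control and 4.50, 4.95 and 4.77 in Celf1cKO, with no overlap. The increase was 1.80-fold (log2 fold-change 0.85, SE 0.146, limma adjusted p = 0.0162). The difference from Clcn7 was not tested.

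Of the 12 TRP genes, 6 were above 1 log2 CPM and none was called by limma, with 1 elevated and 1 reduced at an unadjusted p under 0.05 (16.3% and 13.7% of all genes). Trpm3 was at 8.89, 9.10 and 9.18 log2 CPM in Control and 8.84, 8.52 and 8.54 in Celf1cKO. Celf1cKO library 1 almost met the lowest Control library and the other Celf1cKO libraries were clearly lower, with a log2 fold-change of -0.42 (95% interval -0.70 to -0.14, limma adjusted p = 0.0653). Without Celf1cKO library 1 it was -0.52 (adjusted p = 0.0182), still inside the fold threshold. Trpm7, which joins a channel for magnesium and calcium to a kinase, differed by 0.00 (95% interval -0.26 to 0.27). Trpc6, a lipid-gated channel, was at 5.51, 6.25 and 5.91 in Control and 5.85, 6.46 and 6.20 in Celf1cKO. Library 2 was highest in both groups, and each Celf1cKO library was above the Control library of its number, without a call (log2 fold-change 0.28, adjusted p = 0.41, and 0.0654 with the replicate block).

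The stretch- and temperature-sensitive TRPV channels were scarce. Trpv2 had 17, 13 and 12 reads in Control and 41, 143 and 76 in Celf1cKO, so that every Celf1cKO library was higher. Its log2 fold-change of 2.04 met the adjusted p (0.0293, limma) but its mean was below the level of 1, and the adjusted p held without Celf1cKO library 1 and not without the other 5 in turn (0.0659 to 0.112). Trpv4 and Trpv1, which are described as sensors of tension and shrinkage in lens epithelium, differed by -1.23 (adjusted p = 0.189) and -0.06 (adjusted p = 0.947). Trpv1 rested on 7 to 21 reads in a library. Trpc1 differed by 0.31 (adjusted p = 0.433).

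Piezo1 (ENSMUSG00000014444, chr8:122481698-122551329), the stretch-gated cation channel of endothelium and epithelia, was at 4.92, 4.89 and 5.02 log2 CPM in Control and at 4.55, 3.66 and 4.05 in Celf1cKO. The Control libraries were within a narrow range and the Celf1cKO libraries lay below, library 2 farthest. The reduction was 1.81-fold (log2 fold-change -0.85, SE 0.212, limma adjusted p = 0.0434). It was called without Celf1cKO library 1 and not without the other 5 in turn (adjusted p = 0.0852 to 0.144), and under scaling by total reads the adjusted p was 0.0672 and without the variance trend 0.0878. In the annotation Piezo1 shares 2441 of its 9935 exon bases (24.6%) with Ctu2 on the opposite strand, so its count is uncertain as far as strand was not used. Piezo2, its relative in touch neurons, was lower in each Celf1cKO library without a call (log2 fold-change -0.33, 95% interval -0.70 to 0.04, adjusted p = 0.204).

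The anoctamins and HCN channels gave no call by limma. At an unadjusted p under 0.05 there were 1 elevated and 1 reduced anoctamin and 0 HCN genes, where 16.3% of all genes were higher and 13.7% lower. Ano1, the calcium-activated chloride channel, was at 3.89, 4.53 and 5.03 log2 CPM in Control and 3.87, 2.15 and 3.16 in Celf1cKO (log2 fold-change -1.42, limma adjusted p = 0.0838). Ano4 moved the other way, from 0.44, 0.84 and 1.59 to 2.02, 4.01 and 2.75. The Ano4 groups did not overlap, and its log2 fold-change of 1.97 just missed the test (adjusted p = 0.0512) and passed with the block (0.0296). Ano10 was even, with a log2 fold-change of 0.11 (95% interval -0.18 to 0.40). All 4 HCN genes, which encode pacemaker channels, were below 1 log2 CPM, and Hcn4 differed by -0.00 (95% interval -0.90 to 0.90).

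**Figure D4:**
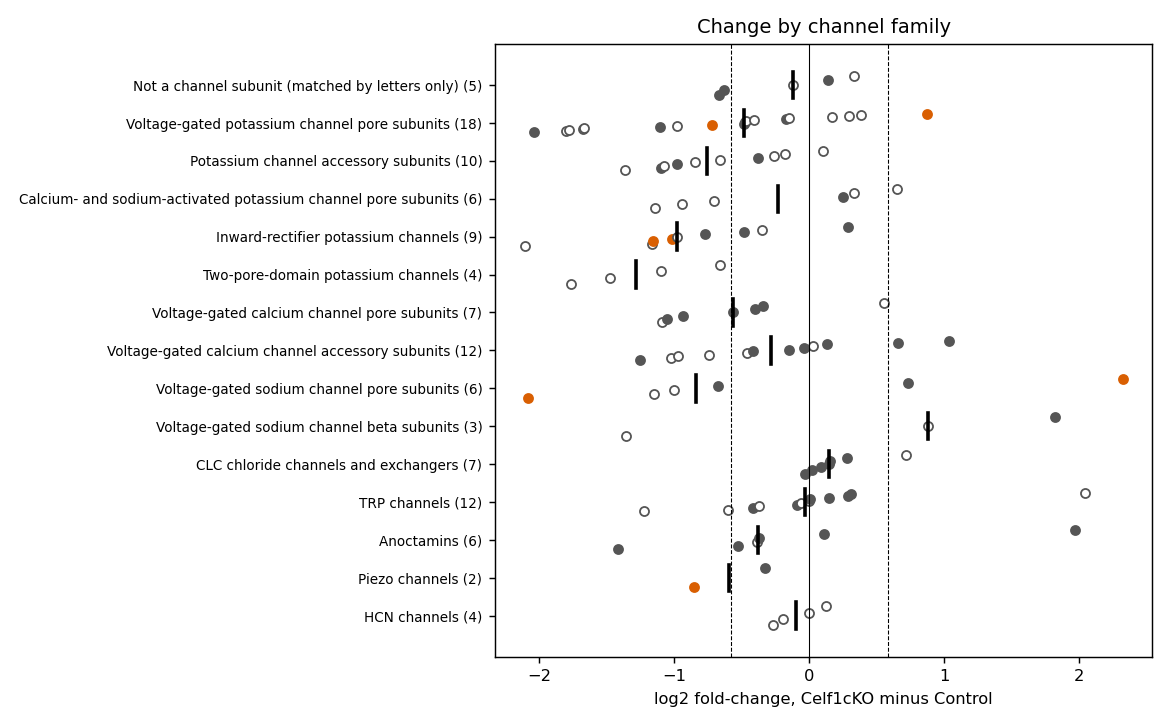
Log2 fold-change (Celf1cKO minus Control) of every ion channel gene by family, with the number of genes in brackets. Filled points have a mean above 1 log2 CPM, open points do not, orange points are called and thick bars are family medians; the CLC genes cluster near 0, and the sodium channel pore genes spread from -2.08 to 2.32.

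Genes outside the symbol rule but related in function were read from lists. Of 20 measured channels with a described role in the lens, all members already, Piezo1 alone was called (5% reduced, against 2.56% of all genes). Elevated calls were 0 of the 20, against 4.69% of all genes, and the median log2 fold-change was -0.34. A list of 49 other measured channel genes also holds Ostm1, whose protein is a partner of a CLC exchanger. Of the 49, 2 were elevated (4.08%, against 4.69% of all genes) and 3 reduced (6.12%, against 2.56%), with a median log2 fold-change of -0.02. The elevated ones were Ostm1 and Ryr3, a calcium release channel (log2 fold-change 1.10, limma adjusted p = 0.0261). The reduced ones were Itpr2, an inositol trisphosphate receptor (-1.94, adjusted p = 0.0335), Pkd2, a cation channel of cilia (-0.67, adjusted p = 0.0275), and Ttyh1, a membrane protein once described as a chloride channel (-1.79, adjusted p = 0.0377).

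Of 40 measured channel partners, 3 were elevated (7.5%, against 4.69% of all genes) and 2 reduced (5%, against 2.56%), with a median log2 fold-change of 0.03. Rem2, a small GTPase that inhibits voltage-gated calcium channels, was at 1.42, 1.08 and 1.28 log2 CPM in Control and at 2.76, 3.01 and 2.86 in Celf1cKO. The groups lay far apart, with a 3.05-fold increase (log2 fold-change 1.61, SE 0.184, limma adjusted p = 0.00906). Calm2, which encodes calmodulin, the calcium sensor of many channels, rose by 0.72 on the log2 scale (adjusted p = 0.016). Nedd4l, a ubiquitin ligase acting on sodium channels, fell by 0.62 in log2 fold-change (adjusted p = 0.014). Ank3, the ankyrin that anchors sodium channels, fell by 0.91 (adjusted p = 0.0306).

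The libraries with the same number resembled each other in many scarce channel genes. Library 2 was the lowest of its group in both groups in 28 of the 111 members (25.2%), against 14.8% of all genes, and among those at or under 1 log2 CPM in 19 of 57 (33.3%), against 25.4% of all such genes. It was the highest in both groups in 3 members, against 17.5% of all genes. Cacna1g, a T-type calcium channel gene, held 226, 65 and 360 reads in Control and 106, 34 and 363 in Celf1cKO. Kcnj3, Kcnh5 and Kcnn3 had 1 to 5 reads in each library 2. The summed level of the retinal neuron markers (7 of 10 in the table, none called) was 7.52, 1.72 and 24.8 CPM in Control and 5.59, 2.88 and 13.2 in Celf1cKO, likewise lowest in library 2 and highest in library 3. Its part in these values was not tested.

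**Figure D5:**
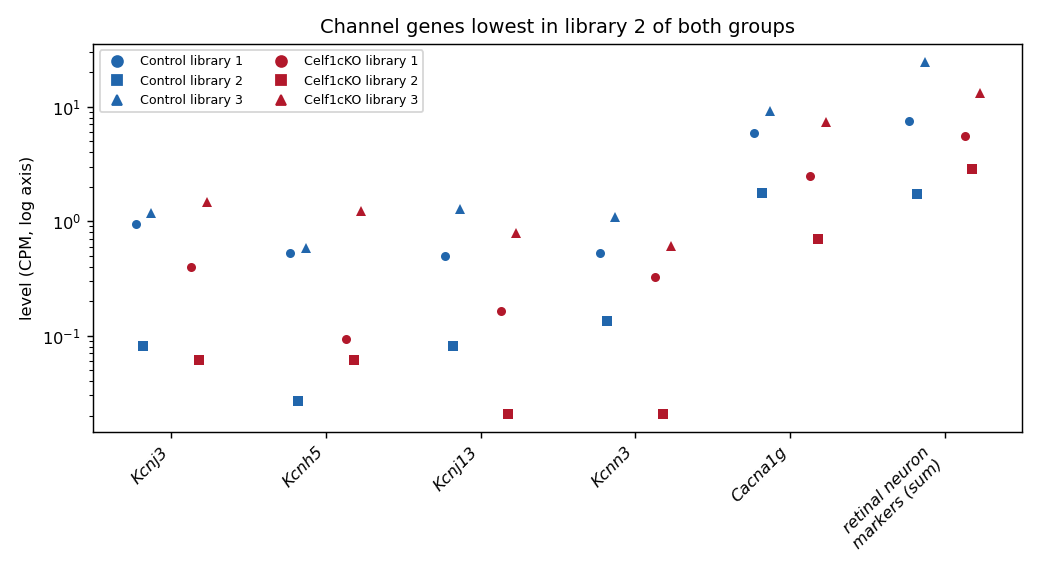
Level (CPM, log axis) of 5 ion channel genes and of the summed retinal neuron markers in each library, in blue for Control and red for Celf1cKO with a shape for each library number. Library 2 is lowest in both groups in each gene and in the marker sum, and library 3 is highest in both groups in each.

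Within Celf1cKO, library 2 was the lowest in 54 of the 77 members with a negative fold-change (70.1%), against 50.3% of the 7464 such genes in all. The order of library 1, then 3, then 2 held in 40 of the 77 (51.9%), against 38.0% of all such genes, and Celf1 itself stood at 8.93 in library 1, 7.83 in library 3 and 7.66 in library 2. The vessel, mesenchyme and lens epithelium marker sums ran in the same order, as did the 1 blood marker in the table. The lens fiber sum did too, although libraries 2 and 3 were nearly equal (229218 and 229241 CPM). The summed vessel markers (10 of 10 in the table, none called, 10 with a negative fold-change) ranged from 150 to 194 CPM in Control and stood at 170, 28.2 and 87.4 CPM in Celf1cKO libraries 1, 2 and 3. The mesenchyme markers (8 of 10, 7 with a negative fold-change) ranged from 96.4 to 124 CPM in Control and stood at 75.0, 21.3 and 38.7 in Celf1cKO. Of these, Pdgfra was called lower (12.5%, against 2.56% of all genes). The other sums did not run in this order. Within Celf1cKO, library 2 was the highest for photoreceptor (1.77, 4.34 and 2.90 CPM), skeletal muscle (4.35, 12.6 and 7.90) and cornea or skin markers (30.6, 34.1 and 30.2). In Control these sums ranged from 1.02 to 6.35, 0.726 to 1.27 and 22.3 to 23.8 CPM, so the muscle and the cornea or skin sums were higher in every Celf1cKO library. Of 10 markers each, only 4, 2 and 3 were in the table. In Celf1cKO the muscle sum was mostly Ttn and the cornea or skin sum mostly Perp. Ttn (log2 fold-change 3.65, limma adjusted p = 0.0094) was not called because its mean was below the level threshold. Perp (0.46, adjusted p = 0.0300) was inside the fold threshold. Library 3 was the highest for pigment cell, macrophage, Schwann cell and retinal neuron markers. The pigment cell sum includes Trpm1, itself a member and the largest part of that sum.

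The marker sums of the lens cells were lower too. The lens epithelium markers (9 of 10 in the table) summed to 3130 to 3534 CPM in Control and to 2799, 2091 and 2310 in Celf1cKO. Sparc and Foxe3 were called lower (22.2%, against 2.56% of all genes). Cdkn1c was higher in every Celf1cKO library without a call (log2 fold-change 0.28). The lens fiber markers (11 of 12) summed to 290098 to 328472 CPM in Control and 229218 to 244741 in Celf1cKO. Bfsp1, Lgsn and Dnase2b were called lower (27.3%), while Bfsp2 had a positive log2 fold-change of 0.20. Most of the fiber sum came from Cryaa and Cryba1, neither of which was called (limma adjusted p = 0.536 and 0.475). All 5 called reductions, and Kcnh1, Kcnk5, Kcnab1, Kcne1, Ano1 and Kcnj2, were lowest in Celf1cKO library 2, where the epithelium, vessel and mesenchyme sums were lowest. Kcnj11, Kcnh2 and Kcnj6 differed little among the Celf1cKO libraries. Other genes with a negative fold-change did not share this: Kcnd3 was lowest in Celf1cKO library 3, and Cacna1d and Cacna1a in Celf1cKO library 1. Without Celf1cKO library 2 the log2 fold-changes were -1.91 for Scn11a, -0.68 for Kcnh2, -0.96 for Kcnj6, -1.15 for Kcnj11 and -0.64 for Piezo1. The first 2 were still called, and the calls lower over all genes fell from 356 to 131. The part of these cell types in the channel values was not tested.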

How the data were processed

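RNA from the lenses was sequenced as strand-specific paired reads of 150 bases. The authors aligned the reads to GRCm38.p6 with STAR 2.7.8a, counted them per gene with featureCounts 2.0.0, kept genes above 0.2 CPM and normalised the libraries with edgeR. They deposited log2 CPM of each library, which were used here. The authors also deposited the group means, log2 fold-change, average log2 CPM, F score, p-value and FDR from their test, none of which was used.

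Read numbers were recovered from the spacing of the log2 values, and 100% were whole within 0.01. A floor of 3 reads equals 0.0609 to 0.0807 CPM. Groups follow the labels. The groups were compared with limma 3.58.1 in R 4.3.3 (trended prior variance, prior df 3.40), with Benjamini-Hochberg adjustment over 13931 genes and the study's thresholds. Nothing in the labels says that replicates came from separate litters, so p-values measure the spread between these pools. Replicates 1, 2 and 3 share numbers across groups in the labels, and the study describes no pairing. Same-numbered libraries deviated together (correlations of 0.33, 0.42 and 0.33 over expressed genes), so the replicate block was taken to pair them.

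The members and gene lists were chosen with earlier results of these data known. The named genes are those with an adjusted p under 0.05, the most abundant per length of each family of 3 or more, the measured lens channels, and others picked with their values known. Some genes that these rules name are not reported here. The procedure was tested on simulated data with 200 changed genes, at a dispersion (spread between libraries) of 0.01, 0.05 or 0.2. Of changes of 1 in log2 fold-change it recovered 98%, 66% and 0%, and of changes of 2 it recovered 94%, 94% and 25%. At the largest spread most changes were thus missed. Gene positions and 3′ UTRs came from GENCODE M21 and promoters from RefSeq. Alternatives were the replicate block, other variance models, a log2(CPM + 1) scale, other scalings, voom on whole reads, other thresholds and each library left out.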

Additional observations from a re-analysis of the deposited data

How the results depend on the processing

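The count of ion channel genes called elevated was 2 and of those called reduced 5, against 654 and 356 over all genes. With the replicate block, which pairs same-numbered libraries, these were 3 and 7, adding Ano4, Kcnh1 and Cacng4, and the adjusted p of Cacna1d and Kcnk5 changed sides of 0.05; the block changed no other call of a named gene, and Celf1 stayed at -1.60 (adjusted p 0.0178, limma). Without the variance trend the counts were 0 and 2 (Scn11a and Kcnh2), with Celf1 at -1.60 and an adjusted p of 0.0693. Scaling by total reads gave 4 and 3, adding Ano4 and Cacnb1 and losing Kcnh2 (-0.49) and Piezo1. That scaling turns the elevated share of the members' calls from 28.6% to 57.1%, and that of the calls over all genes from 64.8% to 89.4%. Over all genes the block gave 745 elevated and 510 reduced, and the fit without the variance trend 299 and 113. Voom on whole reads gave 1 and 6, losing Scn9a and adding Kcnh1, and quantile normalization gave 3 and 6, adding Ano4 and Kcnh1. Leaving out each library in turn gave 0 to 4 elevated and 0 to 10 reduced genes, and a Celf1 log2 fold-change of -1.99 to -1.36 with adjusted p of up to 0.108. Both counts were 0 without Control library 2 or Celf1cKO library 3, where limma called 1 gene in the whole table. They were 4 and 10 without Celf1cKO library 1, adding Ano4, Cacnb1, Kcnd3, Kcnab1, Ano1, Kcnh1 and Kcne1, where all genes gave 1024 and 855. They were 0 and 4 without Control library 1 (412 and 175 over all genes). Without Control library 3 they were 1 and 2 (315 and 113 over all genes), and likewise without Celf1cKO library 2 (299 and 131). The cause was not tested. No alternative reversed the direction of a called gene. By the side of 0.05 on which the adjusted p of the named genes fell, 179 of the values with a library left out were unchanged, 40 lost it and 3 gained it, and of the others 345 were unchanged, 12 lost it and 4 gained it.

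Precision was limited by 3 libraries in a group and by scarce reads. A fold of 2 lay outside the 95% interval in 35 of the 111 members, and 36 had 100 reads or more in every library, so for most members a missed call does not show an unchanged level. Groups of 3 were too small for the test of outlying libraries.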
